A study of Caenorhabditis briggsae with 16 samples.

Results

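The set described here holds the miRNA arms of *C. briggsae* whose names carry a 4-digit family number, such as Cbr-Mir-7594, or no family number at all. They were chosen by name, with earlier results of these data known. Mir-1817 also has a 4-digit number but was left out, and its arms count among the other arms. The set makes up 80 of the 372 arms in the deposited count table. Of these, 66 rows are 4-digit arms, and 14 are arms of hairpins that the files list by a serial from 1 to 6 in place of a family number, called unnumbered here with that serial. The rows come from 40 hairpins in 26 families, with Mir-7591-v1 and Mir-7591-v2, whose counts are identical, taken as separate hairpins. Small RNAs were sequenced from whole wild-type animals of strain AF16 with no treatment. Synchronized L1 larvae were plated and grown at 25°C, and 1 library was made at each hour from 18 to 33 h after plating, which gives 16 libraries and no replicates. RNA came from pools of whole larvae, so fewer cells that make a miRNA and less of that miRNA per cell cannot be told apart.

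A miRNA is cut in a pair of steps from a hairpin in a longer transcript, which leaves a duplex of 2 arms, 5p and 3p. An Argonaute protein retains the guide arm, whose 5′ seed pairs with target mRNAs and lowers their output, whereas the passenger arm is usually degraded. The asterisk in an arm name marks the arm annotated as the passenger, and here the guide was taken as the arm with more counts over the whole course. In miRBase, family numbers are given in order of registration, so a high number says when a miRNA was entered and not how widely it occurs. The families Mir-1993 and Mir-2001 carry names that are also used in other invertebrate groups. Conservation was not measured, so the arms are called by their names and not by a lineage. In the MirGeneDB names, P1a and P2b and the like mark paralogues, the copies of one family in the same genome. Of the 26 families, 15 have a number of the form 75xx, and these hold 25 of the 40 hairpins. A single hairpin represented 19 families, and the other 7 had more than 1, Mir-7591 only through its v1 and v2 entries.

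Both arms of Mir-7591-v2 repeated the counts of Mir-7591-v1, and Mir-7594-P1b_3p stayed within 0.053 log2 of Mir-7594-P1a_3p in every library. Each of these was counted once with its partner, which left 77 arms in the set, 14 unnumbered and 63 4-digit. The same rule left 275 of the 292 other rows. The pair just outside the limit of 0.1 log2, the 5p* arms of Mir-7594-P1a and Mir-7594-P1b, differed by up to 0.102 and was kept as 2 arms. The total count of a library was the sum over its 372 miRNA arm rows, not over all its small RNA reads. It ranged from 9588599 in the 32 h library to 15866144 in the 19 h library. All levels below are normalized counts, that is, counts scaled to the mean library total of 12480503. At this depth, 1 normalized count stands for 0.768 to 1.27 counted reads, depending on the library. Levels of different arms were compared as counts, with no correction for the length or sequence of an arm.

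The 77 arms were a small part of the counts of all miRNA arms. Together they held between 2.48% and 2.98% of the total count of a library, with a median of 2.65%. The unnumbered arms held 1.57% of the counts of the set. A few 4-digit guides held most of the rest. Mir-7593_3p and Mir-7588_3p made up 41.7% of the counts of the set, and the 5 most abundant arms 70.2%.

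The median arm of the set had a mean level of 118 (quartiles 22.5 and 605), whereas the median other arm had 723 (quartiles 67.0 and 12065). The highest mean level was 83515 in the set, for Mir-7593_3p, and 1321314 among the other arms. Among guides, the median was 290 over 38 guides of the set and 4731 over 137 other guides. At least 1000 was reached by 13 of the 38 guides of the set and by 92 of the 137 others. Among passengers, the median was 30.6 over 39 arms of the set and 109 over 138 other arms. The set was thus lower than the other arms in both classes of arm, as a description with no test.

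Within the set, the 14 unnumbered arms had a median level of 64.2, and the 63 4-digit arms 160. The 3p arm of unnumbered hairpin 1, at 3605 on average, was the only unnumbered arm above 1000 and ranked 109 of the 352 arms. The 8 arms of the set above 10000 were all 4-digit. Mir-7593_3p ranked 28, Mir-7588_3p 33, Mir-7584_5p 38, Mir-7594-P2a_3p 51, Mir-2231_3p 57, Mir-7579_3p 61, Mir-1993_3p 64 and Mir-7580-P1_3p 76. A further 6 arms lay between 1000 and 10000, 28 between 100 and 1000, 17 between 10 and 100, and 18 below 10. In the plot of level against rank, the arms of the set are spread from rank 28 to rank 351.

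**Figure D1:**
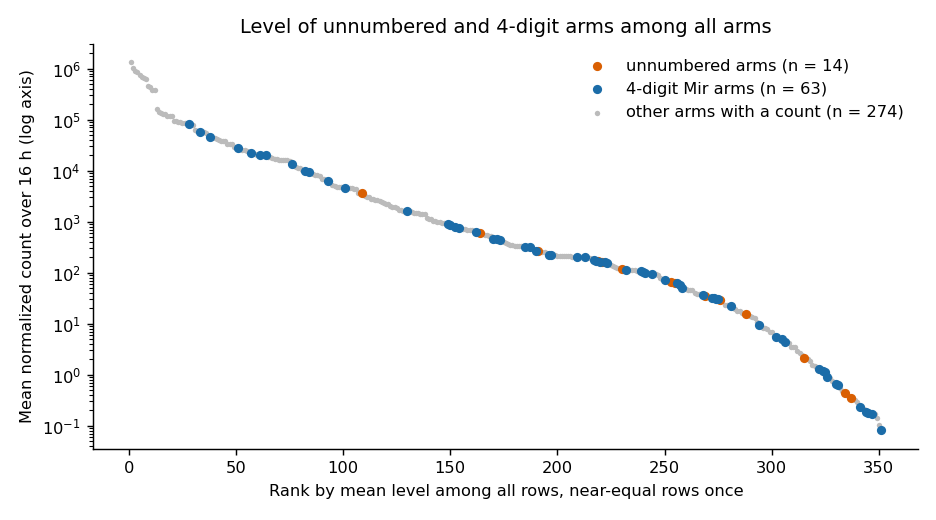
Mean normalized count over the 16 libraries (log axis) against rank for 351 arms with a count, near-equal rows counted once. Unnumbered arms are orange (n = 14), 4-digit arms blue (n = 63) and other arms grey (n = 274). The highest arm of the set, Mir-7593_3p, ranks 28, and the highest unnumbered arm, 3p of unnumbered hairpin 1, ranks 109.

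Every arm of the set had a count in at least 1 library. A count in all 16 libraries was found for 61 of 77 arms of the set (79.2%) and for 240 of 275 other arms (87.3%). A single library held a count for 66 to 72 of the 77. The arms with gaps were nearly all passengers, since 37 of the 38 guides and 24 of the 39 passengers were counted in every library. This follows in part from taking the guide as the arm with more counts. The unnumbered arms (11 of 14) and the 4-digit arms (50 of 63) had similar shares, 78.6% and 79.4%.

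For the tests, an arm needed at least 10 counts in at least 8 libraries, which 59 of the 77 (76.6%) and 233 of the 275 other arms (84.7%) reached. The 18 that did not had between 1 count in all 16 libraries (Mir-7580-P2_5p*) and 158 counts (Mir-7583-P4_3p*). All but 1 of them were passengers, again in part by the definition of the guide. The exception was Mir-7596_3p*, which carries the asterisk yet had 79 counts against 14 for Mir-7596_5p. It was the only such hairpin of the 40, and it was too rare for any time course, with at most 11.1 normalized counts in a library.

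The 3 most abundant arms had no called trend, Mir-7594-P2a_3p, Mir-7579_3p and Mir-7580-P1_3p were called falling, Mir-1993_3p and Mir-2231_3p rising, and Mir-2231_3p also moved up and down. Over 18 to 33 h, trend was tested as a linear term on the log2 scale with edgeR's quasi-likelihood test, next to cosine and sine terms at a period of 7 h. The Benjamini-Hochberg adjustment ran over all 311 tested rows. The spread is that of single libraries about the fitted curve, and neighbouring hours are not replicates.

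Mir-7593_3p stood at 83733, 86164, 86971, 96772, 84356, 89592, 94610 and 90596 from 18 to 25 h, and at 79929, 68002, 68352, 71117, 78392, 83503, 82579 and 91573 from 26 to 33 h. It was lowest at 27 and 28 h and back within its early range at 33 h, so that its highest hour was only 1.42-fold above its lowest. Its slope was −0.013 log2 per h (SE 0.0079, adjusted p = 0.153 in edgeR). Without the 33 h library the slope was −0.023 and passed the test (edgeR, adjusted p = 0.0234; 0.0234 to 0.239 over the 16 fits without 1 library, and 0.0535 to 0.838 over the other alternatives).

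Mir-7588_3p stood at 70890, 50874, 54762, 45182, 53363, 62751, 62856 and 62392 from 18 to 25 h, and at 61274, 55657, 61678, 56152, 56340, 56491, 55151 and 51285 from 26 to 33 h. Its highest and its lowest hour, 18 and 21 h, both came at the start of the course. The last hour lay below the first, while the means of the 4 late and the 4 early hours were close (ratio 0.989). Its slope was −0.0069 (SE 0.0081, adjusted p = 0.45 in edgeR).

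Mir-7584_5p stood at 47458, 49754, 49634, 27345, 39886, 54040, 48405 and 53408 from 18 to 25 h, and at 51076, 49578, 45156, 46440, 43580, 46446, 43408 and 41841 from 26 to 33 h. The 21 h library was lowest, at 27345, against 39886 or more at every other hour. Its slope was −0.0036 (SE 0.012, adjusted p = 0.798 in edgeR).

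Mir-7594-P2a_3p was a clear faller among the abundant guides. It stood at 32598, 37631, 35986, 27588, 31939, 33377, 34041 and 30942 from 18 to 25 h, and at 27338, 26070, 23094, 22019, 19761, 21760, 19987 and 19954 from 26 to 33 h. All 4 late hours, 19761 to 21760 at 30 to 33 h, lay below all 4 early ones, 27588 to 37631 at 18 to 21 h. The mean late level was 0.609 of the early one, and the slope was −0.065 (SE 0.008, adjusted p = 5.82e-06 in edgeR).

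Mir-7579_3p drifted down slowly. It stood at 23943, 23185, 22419, 22108, 22481, 22971, 21647 and 20696 from 18 to 25 h, and at 19495, 18339, 18636, 17723, 18013, 17795, 17937 and 17275 from 26 to 33 h. The late hours lay below the early ones without overlap, at 0.775 of their mean, with a slope of −0.035 (SE 0.0041, adjusted p = 3.81e-06 in edgeR). This call did not pass with median-of-ratios scaling (edgeR, slope −0.013, adjusted p = 0.0739; range over the alternatives other than leaving out 1 library 2.41e-32 to 0.0739).

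Mir-7580-P1_3p stood between 11435 at 33 h and 16512 at 24 h, at 11435 to 12566 in the late hours and 12199 to 15009 in the early ones, which overlap. Its slope was −0.024 (SE 0.0065, adjusted p = 0.00401 in edgeR). The call was lost with TMM factors (edgeR, adjusted p = 0.0961), with median-of-ratios scaling (0.703) and from 18 to 29 h (0.348), the range over these and the other alternatives being 0.000323 to 0.703.

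Mir-1993_3p rose. It stood at 14702, 14443, 16764, 14741, 18821, 21643, 24767 and 21750 from 18 to 25 h, and at 21637, 18774, 21282, 20576, 21849, 23061, 24802 and 23327 from 26 to 33 h. Most of the difference lay between 21 and 24 h, after which the level stayed between 18774 and 24802. The late mean was 1.53-fold the early one without overlap, and the slope was 0.040 (SE 0.0085, adjusted p = 0.000826 in edgeR). Its passenger, Mir-1993_5p*, had no called trend (slope 0.021, SE 0.026, adjusted p = 0.473 in edgeR) and stood at 712 to 849 late and 351 to 930 early, with its highest level, 1183, at 28 h.

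**Figure D2:**
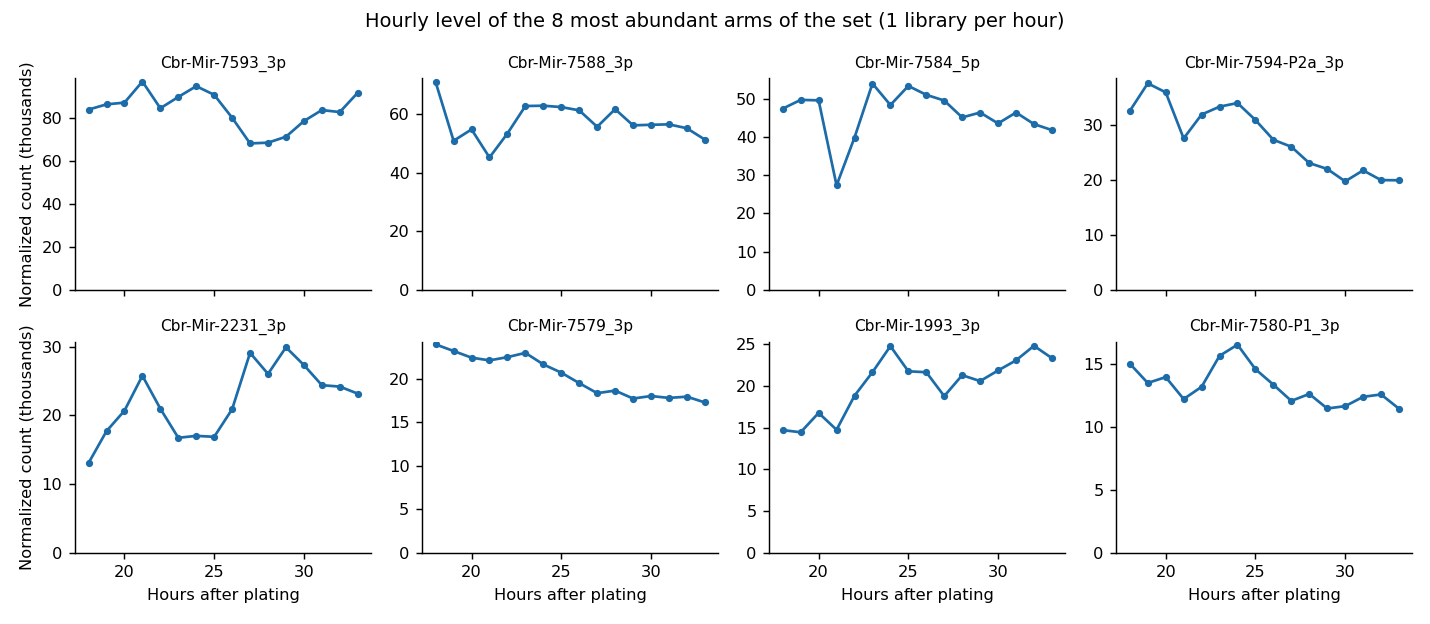
Normalized count divided by 1000 (linear axis from 0) at each hour for the 8 most abundant arms of the set, 1 point per library. Mir-7593_3p, Mir-7588_3p and Mir-7584_5p have no called trend (Mir-7588_3p stands at 51285 at 33 h, against 70890 at 18 h), Mir-7594-P2a_3p and Mir-7579_3p fall, Mir-1993_3p rises, and Mir-2231_3p has a high at 21 h and again from 27 to 29 h.

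Mir-2231_3p was the only arm of the set with a called rhythm. It stood at 13066, 17706, 20681, 25766, 20967, 16737, 17015 and 16878 from 18 to 25 h, and at 20897, 29100, 26031, 29906, 27318, 24392, 24185 and 23160 from 26 to 33 h. The level was high at 21 h, low from 23 to 25 h, and high again from 27 to 29 h. At a period of 7 h its amplitude was 0.32 log2 (SE 0.054, adjusted p = 0.0125 in edgeR), and it also rose, with a slope of 0.053 (SE 0.0083, adjusted p = 5.69e-05 in edgeR). The rhythm call was kept in each of the 16 fits without 1 library (edgeR, adjusted p = 0.00651 to 0.0284). It did not pass at a period of 6 h (adjusted p = 0.434) or without the trend term (0.627), the range over all alternatives other than leaving out 1 library being 1.17e-05 to 0.627. Over all tested rows 23 of 311, or 7.40%, were called rhythmic, beside 1 of the 59 tested arms of the set. At an unadjusted p under 0.05 edgeR gave 9 of the 59, beside 21.5% of all tested rows. The count of the set depended on the fit. It was 3 with DESeq2, beside 13.9% of the 280 rows given an adjusted p, and 5 with a quadratic trend, beside 17.7%, and it was 0 at a period of 6 h, beside 0.965%, and without the trend term, beside 1.61%.

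Its passenger Mir-2231_5p*, named after its values were seen, was the only one of the 39 passengers of the set with a mean level of at least 1000, at 6329 and rank 93. Its highest hour was 5.16-fold above its lowest, and that of the guide 2.29-fold. It stood at 5576, 3271, 4724, 6071, 7057, 5798, 4545 and 4746 from 18 to 25 h, and at 8780, 11674, 12150, 10078, 6743, 4495, 3208 and 2353 from 26 to 33 h. The level was high at 22 h and again at 28 h, and the last hour was the lowest. The amplitude at 7 h was 0.58 log2 (SE 0.19), which did not pass (edgeR, unadjusted p = 0.0272, adjusted p = 0.176), and the slope was 0.0078 (SE 0.032, adjusted p = 0.833 in edgeR). From 18 to 29 h alone it was called rising (edgeR, slope 0.11, adjusted p = 0.0127; 0.0127 to 0.979 over the alternatives other than leaving out 1 library).

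For the 3 most abundant arms, the arms of other hairpins with the most similar course were sought among 238 rows with a mean count of at least 100. For Mir-7593_3p these were Mir-281-P4_5p* (Pearson's r = 0.85, Spearman's rho = 0.76) and Mir-279-o8b_5p* (r = 0.72, rho = 0.68). For Mir-7588_3p they were Mir-277-P6a_5p* (r = 0.87, rho = 0.79) and Mir-190_5p (r = 0.87, rho = 0.83). For Mir-7584_5p they were Mir-52-P1_5p (r = 0.93, rho = 0.84) and Mir-54-P1a_3p (r = 0.85, rho = 0.54). These are descriptions over 16 libraries, which share their totals and their order in time.

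Falling courses prevailed. Of the 59 tested arms of the set, 37 were called falling, 7 rising and 15 neither in edgeR, where all 311 tested rows gave 41.5% falling and 27.0% rising. Among the other arms counted once, 83 of 233 fell and 70 rose. The median slope was −0.055 log2 per h in the set, −0.020 among the other arms and −0.029 over all tested rows. In every class of level the share that fell was higher in the set than among the other arms. It was 11 of 17 in the set and 12 of 35 others at a mean of 10 to 100, 19 of 28 and 23 of 69 at 100 to 1000, 4 of 6 and 24 of 56 at 1000 to 10000, and 3 of 8 and 24 of 73 above 10000. No test of this difference was made.

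The scaling moves all slopes alike. With scaling by the total count the median of all rows moved by −0.44 log2 over the 15 h, with TMM factors by −0.21 and with median-of-ratios factors by −0.11. All rows then split into 84 rising and 129 falling, 101 and 115, or 110 and 108. The median of the set moved by −0.82, −0.60 and −0.50 under the same 3 scalings. Under each, 37 of its 59 arms lay below the median row, an equality that follows from all slopes moving alike. The set split into 7 rising and 37 falling, 7 and 33, or 8 and 32. From 18 to 29 h alone, with 12 libraries, 20 arms were called falling. The share over all rows in that fit is not given here, so this count has no background beside it.

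The 4 late hours lay wholly below the 4 early ones in 29 of the 59 arms, beside 35.7% of all tested rows, and wholly above them in 6, beside 25.1%. All 29 were among the called falls and all 6 among the called rises. Of the 43 arms of the set with a mean count of at least 100, 34 had their highest hour from 18 to 24 h and 3 from 30 to 33 h, whereas among 197 such other arms these were 94 and 50. The 18 h library was the highest for 17 of the 43 and for 23 of the 197. Without that library, 36 arms of the set were called falling and 6 rising, the share over all rows in that fit not being given here. The late mean was at most 1/1.5 of the early one in 20 of the 43 and at least 1.5-fold in 3, against 71 and 50 of the 197.

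**Figure D3:**
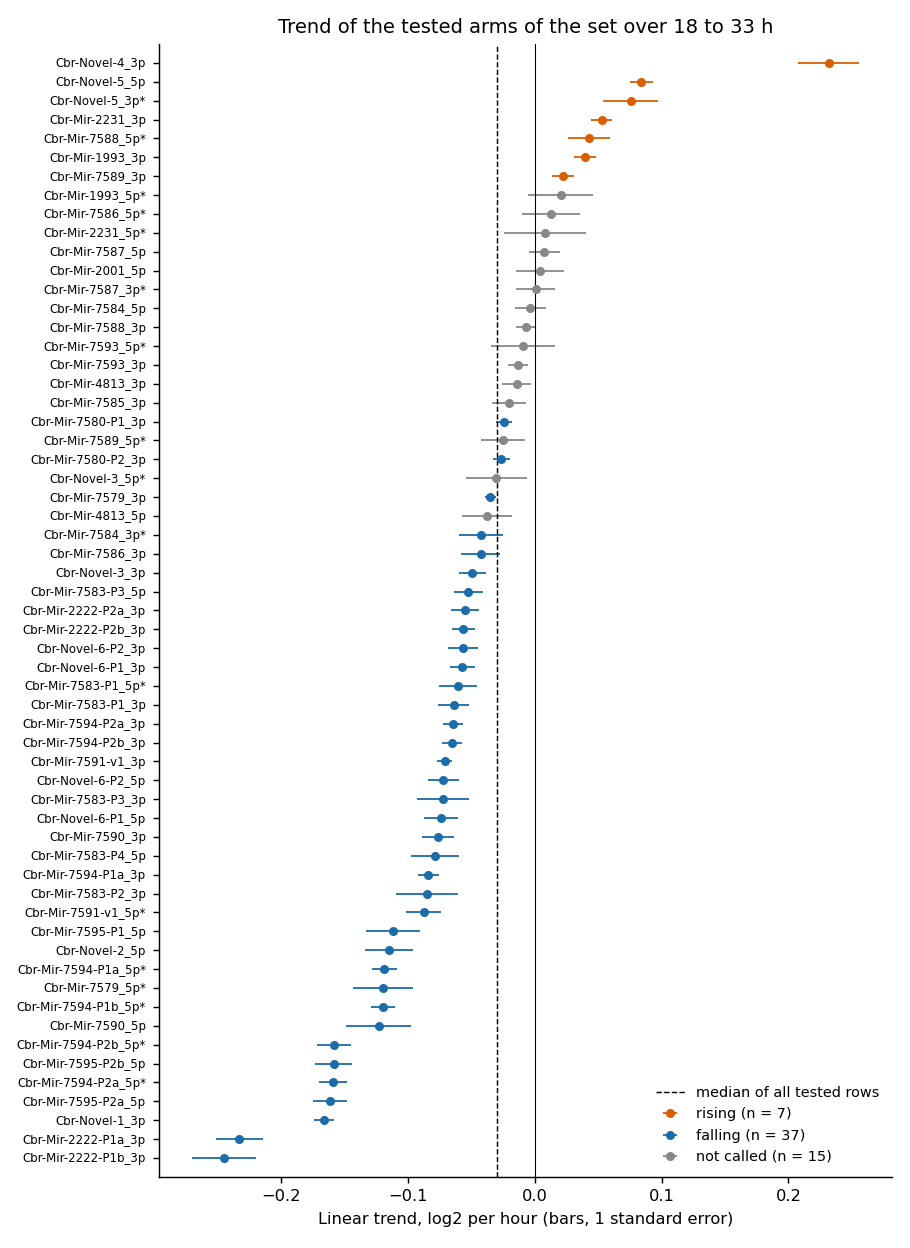
Linear trend in log2 per h with 1 standard error for the 59 tested arms of the set, coloured by the edgeR call at an adjusted p of 0.05. The solid line is 0 and the dashed line the median of all 311 tested rows, −0.029, and 37 arms are called falling, 7 rising and 15 neither.

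Both classes of name and both arms held more falls than rises. Among the 11 tested unnumbered arms 7 fell and 3 rose, and among the 48 4-digit arms 30 fell and 4 rose. Of the guides 25 of 37 fell and 5 rose, and of the passengers 12 of 22 fell and 2 rose. Over all 311 tested rows 41.5% fell and 27.0% rose. All 7 tested arms of Mir-7594, all 6 of Mir-7583, all 4 of Mir-2222 and all 3 of Mir-7595 were called falling. For Mir-2222 these were 4 of 8 arms and for Mir-7595 3 of 6, the others being too rare to test. Several of these arms kept a constant ratio to a paralogue, as given below, so the calls within a family may not be independent. The arms with no called trend included both arms of Mir-7587 and of Mir-4813, the guide of Mir-7584, and the guides of Mir-2001 and Mir-7585.

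The steepest falls belonged to Mir-2222-P1a_3p, the 3p arm of unnumbered hairpin 1, and the Mir-7595-P2 guides and Mir-7594-P2 passengers. Mir-2222-P1a_3p stood at 235, 197, 177, 193, 195, 99.4, 148 and 98.6 from 18 to 25 h, and at 91.0, 64.3, 60.8, 36.0, 34.8, 25.7, 35.1 and 23.1 from 26 to 33 h. It stayed between 177 and 235 until 22 h and was at 148 or less afterwards, and the late mean was 0.148 of the early one, with a slope of −0.23 (SE 0.019, adjusted p = 1e-07 in edgeR). Its paralogue Mir-2222-P1b_3p, named after its values were seen since its mean count was below 100, stood at 6.94 to 15.4 in the late hours and 56.9 to 80.5 in the early ones (slope −0.24, SE 0.025, adjusted p = 1.22e-06 in edgeR).

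The other branch of that family fell much less. Mir-2222-P2a_3p stood at 399 to 538 late and 495 to 941 early (slope −0.055, SE 0.011, adjusted p = 0.000472 in edgeR), and Mir-2222-P2b_3p at 144 to 203 late and 199 to 353 early (slope −0.056, SE 0.0093, adjusted p = 9.04e-05 in edgeR). The ratio of Mir-2222-P2a_3p to Mir-2222-P1a_3p therefore ranged from 2.56 to 20.9 between hours, and its spread was 28.0 times that of counting error (chi-square over its degrees of freedom).

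The 3p arm of unnumbered hairpin 1 was the most abundant unnumbered arm and fell almost steadily. It stood at 7501, 7390, 6107, 5400, 4794, 4064, 3322 and 3328 from 18 to 25 h, and at 2714, 2426, 2119, 2034, 1772, 1658, 1402 and 1644 from 26 to 33 h. The late mean was 0.245 of the early one, and the slope was −0.17 (SE 0.0079, adjusted p = 5.63e-10 in edgeR). Its passenger had 36 counts in all.

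Mir-7595-P2a_5p stood at 988, 522, 500, 317, 333, 397, 285 and 285 from 18 to 25 h, and at 255, 205, 198, 170, 166, 191, 131 and 140 from 26 to 33 h. The largest step was the first one, from 18 to 19 h, and the late mean was 0.27 of the early one (slope −0.16, SE 0.013, adjusted p = 1e-07 in edgeR). Mir-7595-P2b_5p ran beside it, at 152 to 185 late and 333 to 1014 early (slope −0.16, SE 0.015, adjusted p = 4.35e-07 in edgeR).

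Mir-7594-P2a_5p* stood at 957, 711, 742, 509, 621, 552, 587 and 527 from 18 to 25 h, and at 405, 361, 342, 269, 227, 234, 212 and 148 from 26 to 33 h. The late mean was 0.281 of the early one, and the slope of −0.16 (SE 0.011, adjusted p = 3.02e-08 in edgeR) was steeper than the −0.065 of its guide. Mir-7594-P2b_5p* stood at 54.3 to 74.7 late and 184 to 340 early (slope −0.16, SE 0.013, adjusted p = 1.31e-07 in edgeR), where its guide Mir-7594-P2b_3p had a slope of −0.065 (SE 0.0081, adjusted p = 5.85e-06 in edgeR). The slopes of the 2 arms were not tested against each other, and the passenger share of the hairpin by hour is given below.

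Only 7 arms of the set were called rising, and they came from 6 hairpins. Unnumbered hairpin 5 rose in both arms. Its guide, 5p, stood at 382, 383, 434, 313, 416, 577, 641 and 662 from 18 to 25 h, and at 635, 610, 583, 687, 752, 859, 808 and 932 from 26 to 33 h. All late hours exceeded all early ones, 2.22-fold on average (slope 0.084, SE 0.0091, adjusted p = 1.69e-06 in edgeR). Its passenger, 3p*, stood at 128 to 191 late and 37.1 to 105 early, a late mean of 2.21-fold the early one (slope 0.076, SE 0.022, adjusted p = 0.00593 in edgeR).

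The 3p arm of unnumbered hairpin 4, named after its values were seen, rose most by slope but was rare, with 6 to 62 reads in a library. It stood at 8.23, 10.2, 14.9, 7.43, 9.18, 16.6, 27.0 and 26.4 from 18 to 25 h, and at 27.5, 35.6, 60.8, 48.8, 79.8, 59.7, 78.1 and 61.3 from 26 to 33 h. The late mean was 6.84-fold the early one without overlap (slope 0.23, SE 0.024, adjusted p = 1.22e-06 in edgeR). Its passenger, with 6 counts in all, was too rare to follow.

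Mir-7588_5p* stood at 180 to 218 late and 92.8 to 170 early (slope 0.043, SE 0.017, adjusted p = 0.0349 in edgeR), while its guide had no called trend. The call was lost without the library of 19, 20, 22, 28, 29 or 33 h (edgeR, adjusted p = 0.0136 to 0.0841 over the 16 such fits). Mir-7589_3p stood at 1640 to 1788 late and 1211 to 1394 early (slope 0.022, SE 0.0086, adjusted p = 0.033 in edgeR). That call was lost without the library of 18, 19, 28 or 33 h (edgeR, adjusted p = 0.0251 to 0.0961 over the 16 fits). Its passenger Mir-7589_5p* had a slope of −0.025 (SE 0.017, adjusted p = 0.21 in edgeR).

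**Figure D4:**
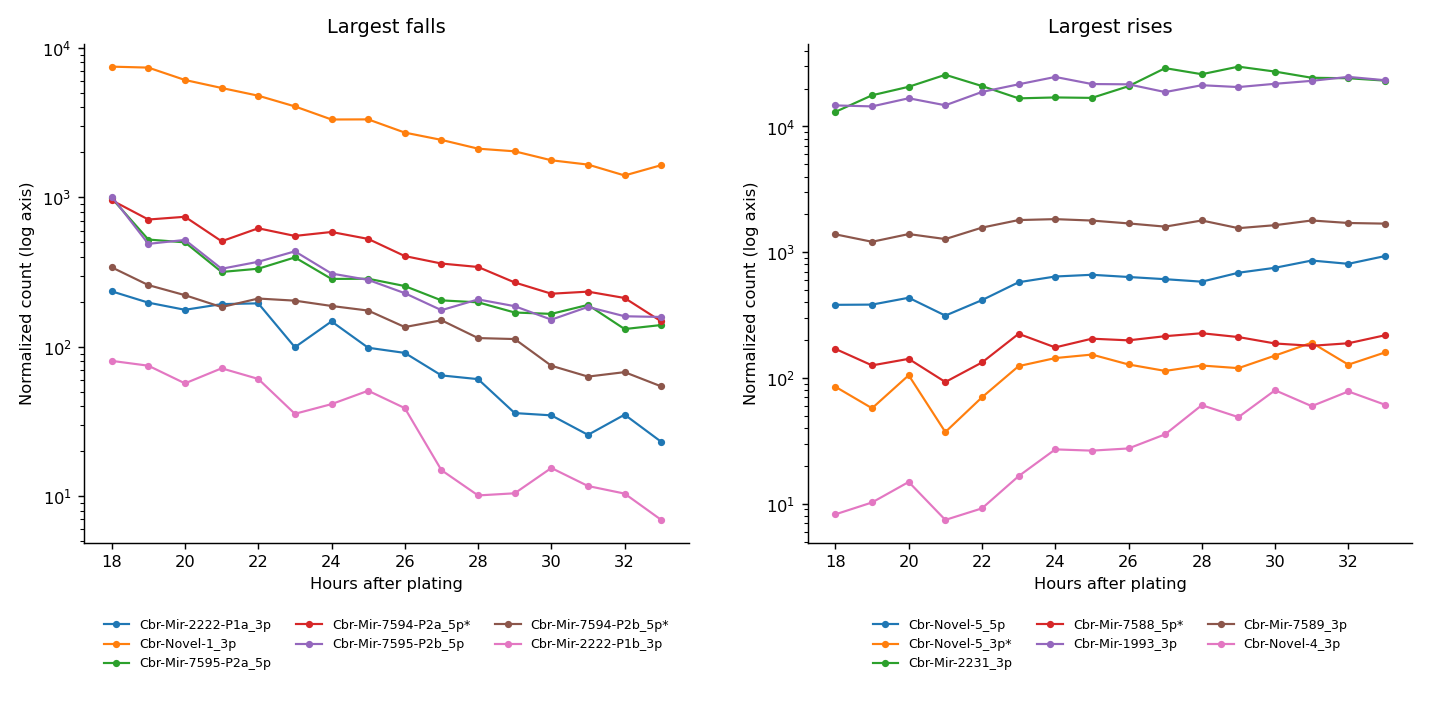
Normalized count (log axis) at each hour, 1 point per library, for the 6 arms of the set with the largest falls and Mir-2222-P1b_3p on the left, and the 6 with the largest rises and the 3p arm of unnumbered hairpin 4 on the right. The 3p arm of unnumbered hairpin 1 falls to 1644 at 33 h, against 7501 at 18 h, and that of unnumbered hairpin 4 stands at 61.3 at 33 h, against 8.23 at 18 h.

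The arms were of very unequal abundance. The ratio of guide to passenger counts, summed over the course, was 1.82 in Mir-7587, 2.56 in Mir-7586, 3.44 in Mir-2231, 408 in Mir-7593 and 1698 in unnumbered hairpin 1. In Mir-7580-P1 the guide had 215103 counts and the passenger 3, and in Mir-7580-P2 they had 74668 and 1. Intervals given below for shares are 95% Wilson intervals, which cover the error of counting alone, as no molecular identifiers were used.

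In Mir-2231 the passenger made up 29.9% (29.3 to 30.5) of the counts of the hairpin at 18 h, 15.6% (15.2 to 16.03) at 19 h, 31.8% (31.4 to 32.3) at 28 h and 9.22% (8.85 to 9.61) at 33 h. The share thus fell over the last 5 hours while the guide stayed at 23160 or more. In Mir-7594-P2a the passenger share was 2.85% (2.69 to 3.03) at 18 h and 0.736% (0.619 to 0.874) at 33 h, and in Mir-7594-P2b 2.95% (2.67 to 3.26) and 0.789% (0.594 to 1.05) at the same hours. In Mir-7594-P1a it was 9.03% (8.58 to 9.50) at 18 h and 5.73% (5.16 to 6.37) at 33 h. As a fold the P1a share changed less, though by more percentage points. Its highest hour was 1.605-fold its lowest, against 3.875-fold in Mir-7594-P2a and 3.737-fold in Mir-7594-P2b.

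Mir-7593_5p*, named after its values were seen, is the passenger of the most abundant guide of the set. It stood at 513, 158, 119, 94.1, 199, 280, 206 and 150 from 18 to 25 h, and at 111, 105, 148, 204, 209, 243, 268 and 268 from 26 to 33 h. It was thus high at 18 and 23 h, low at 21 and 27 h, and high again at 32 and 33 h. Its share of the hairpin was 0.609% (0.561 to 0.662) at 18 h, 0.0971% (0.0776 to 0.122) at 21 h and 0.311% (0.280 to 0.346) at 23 h. Its amplitude of 0.66 log2 at 7 h (SE 0.19) did not pass (edgeR, adjusted p = 0.117), but did with DESeq2 (adjusted p = 0.0342), with a quadratic trend (edgeR, 0.0111) and without the 33 h library (edgeR, 0.0465). Over the alternatives other than leaving out 1 library the adjusted p ranged from 0.0111 to 0.353.

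**Figure D5:**
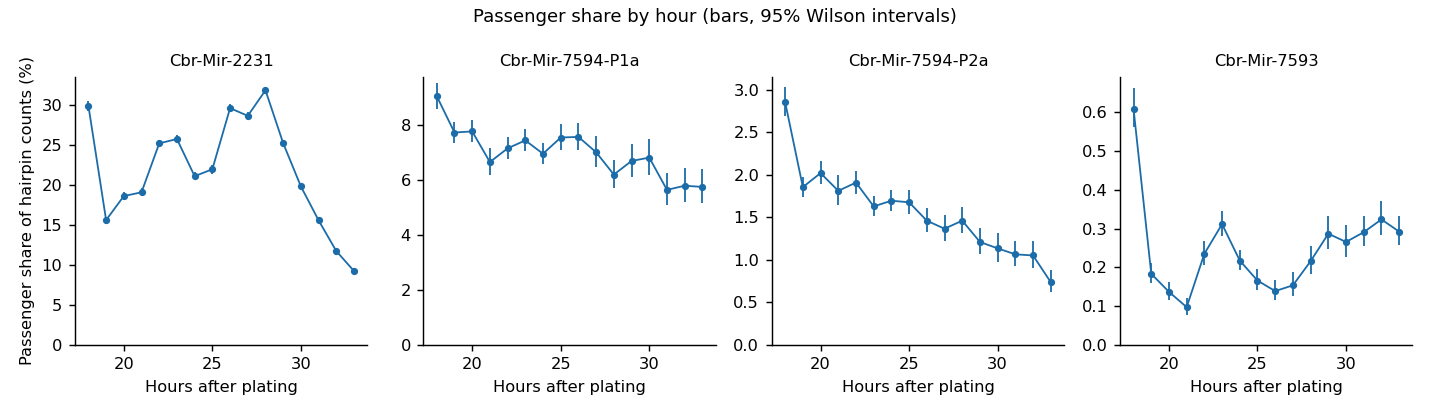
Passenger counts as a percent of the counts of both arms at each hour, 1 point per library with 95% Wilson intervals, for 4 hairpins on axes that start at 0. The Mir-2231 share is highest at 28 h (31.8%) and lowest at 33 h (9.22%), and the Mir-7593 share falls to 0.0971% at 21 h, against 0.609% at 18 h.

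Single hours stood apart in other hairpins. The passenger share of Mir-7589 was 20.5% (18.8 to 22.4) at 19 h and between 8.95% and 17.9% at the other hours, and that of Mir-7591-v1 was 25.0% (23.2 to 26.9) at 19 h and 10.1% (8.47 to 12.0) at 21 h. The 21 h library was low for many arms of the set. Of the 43 with a mean count of at least 100, 29 were below both neighbouring hours at 21 h, with a median of −0.23 log2 against the mean of both neighbours, while 67 of 197 other arms were below both, with a median of 0.02. At the other inner hours, between 3 and 18 of the 43 were below both neighbours. The 21 h library had 10084311 counts. Without it, 38 arms of the set were called falling, 7 rising and 1 rhythmic, the shares over all rows in that fit not being given here. Whether this hour differs by its library was not tested, and with 1 library per hour the hour and the library cannot be told apart.

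Several paralogues had a ratio whose spread over the hours was not called larger than that of counting error. Mir-7594-P2a_3p had 2.95 times the counts of Mir-7594-P2b_3p, within 2.91 to 3.02 in every library, and its spread was 0.80 of that from counting error (chi-square over its degrees of freedom). Their passengers had a ratio of 2.91 (1.10 of counting error). Mir-7580-P1_3p had 2.88 times the counts of Mir-7580-P2_3p (1.49), and Mir-2222-P2a_3p 2.86 times those of Mir-2222-P2b_3p (0.83). The pairs of Mir-7595-P2b_5p with Mir-7595-P2a_5p (ratio 1.02) and of the 3p arms of unnumbered hairpins 6-P2 and 6-P1 (1.03) were nearly equal in summed counts. By hour the latter pair had few counts, such as 153 and 119 at 29 h and 96 and 113 at 32 h. With so few counts a ratio can move between hours and still pass as constant. In all, 12 of the 24 pairs of one family and arm that were compared had a constant ratio, taken as a chi-square p of at least 0.001 with at least 1000 counts for each arm (the lowest p of the 12 was 0.0982). By contrast, Mir-7594-P2a_3p over Mir-7594-P1a_3p moved between 2.38 and 3.25, with 33.9 times the spread of counting error.

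The authors kept reads that map to up to 100 places, so copies with the same or nearly the same sequence can share reads. Which pairs do so was not tested, and such copies do not count as independent arms. With arms of constant ratio also counted once, 67 arms remained, of which 49 were tested. Of these, 27 were called falling, 7 rising and 1 rhythmic in edgeR. The share that fell was thus lower than the 37 of 59 without this step. Over all 311 tested rows, not reduced in this way, 41.5% fell, 27.0% rose and 7.40% were rhythmic.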

How the data were processed

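Raw counts and log2 values of 372 miRNA arms in 16 single-end TruSeq small RNA libraries were deposited by the authors. Per the methods, the authors removed the adapter, aligned reads to assembly WS225 (QuasR, Bowtie, at most 100 hits each), and counted reads starting within 3 bp of a MirGeneDB 5′ end. The submitters' processing notes name Bowtie and ce10 instead, with the versions not given in the sources used. The deposited log2 values are the counts divided by the library total, times the mean total, plus a pseudocount of 8. Recomputed for 5952 values, they differed by at most 0.0005.

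Trend and 7 h rhythm were fitted by the quasi-likelihood functions of edgeR 4.0.16 (R 4.3.3) to the counts of 311 rows, each having 10 or more counts in 8 or more libraries, the library total being the library size, with Benjamini-Hochberg adjustment and a threshold of 0.05. The fit was tested on simulated data. DESeq2 1.42.0, limma 3.58.1 (pseudocounts of 8 and 1), other scalings, filters, periods and trend terms, shorter courses and each hour left out were the alternatives. Constant-ratio copies counted once was chosen after seeing the data. Python 3.11.15, numpy 2.4.6, pandas 2.3.3, scipy 1.17.1 and matplotlib 3.10.9 were used.

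Each hour is a group of 1 library. Late stands for 30 to 33 h and early for 18 to 21 h. Rows of one family and arm within 0.1 log2 in every library were counted once. Hourly values are given for the 8 most abundant arms, called rhythms, and the 6 largest called rises and falls with a mean count of at least 100. Other arms are given as ranges or are said to be named after their values were seen. The members and lists were chosen with earlier results of these data known. Hairpins that the files list by a serial in place of a family number are called unnumbered hairpins 1 to 6 here, and appear in the plots under the names of the files. No genome was used here, so no sequence or position is given. Intervals cover counting error only.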

Additional observations from a re-analysis of the deposited data

How the results depend on the processing

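The number of arms of the set called falling was 37, and 20 from 18 to 29 h only, where 12 libraries enter the fit. Leaving out each hour in turn gave 35 to 38 falling, 5 to 7 rising and 1 to 2 rhythmic arms, the 2 rhythmic arms without 18 h and without 33 h. The other alternatives gave 20 to 40 falling and 7 to 10 rising. For falls and rises, counts over all rows are given above for the 3 scalings only. The 1 rhythmic arm became 3 with DESeq2, 5 with a quadratic trend, and 0 at a period of 6 h or with no trend term. The cause was not tested.

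Directions that turned belonged to arms with no called trend, apart from one late-to-early ratio. The slope of Mir-7593_3p was 0.0021 with TMM factors and 0.0094 with median-of-ratios factors. That of Mir-7588_3p was 0.0079 and 0.015 under these scalings, 0.0006 without 18 h (range with 1 hour left out −0.0114 to 0.0006) and 0.0151 from 18 to 29 h. That of Mir-7584_5p was 0.0115 and 0.0184 under the scalings, 0.0277 from 18 to 29 h, and 0.0005, 0.0008 and 0.0022 without 23, 32 and 33 h (range −0.0112 to 0.0022). That of Mir-2231_5p* was −0.0052, −0.0032, −0.0024 and −0.0008 without 19, 20, 21 and 27 h (range −0.0052 to 0.0399). That of Mir-7593_5p* was 0.0051 and 0.0119 under the scalings and 0.0392 without 18 h (range −0.0381 to 0.0392). The late-to-early ratio turned for Mir-7593_3p (1.0031 with 3 hours at each end, 1.1203 with median-of-ratios factors), Mir-7588_3p (1.1667), Mir-7580-P1_3p (1.0359) and Mir-2231_5p* (1.0057, each with median-of-ratios factors), and for Mir-7584_5p (0.8968) and Mir-7593_5p* (0.9863) with 3 hours at each end. Mir-7580-P1_3p is the called one of these. No paired analysis was possible because each hour has 1 library and no replicate number.

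With 1 library per hour, a departure of a single hour cannot be told apart from its library. Passengers with fewer than 10 counts in most libraries were not testable at this depth.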

Other observations

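Among the 9 of 59 tested arms of the set with an unadjusted rhythm p under 0.05 in edgeR, beside 21.5% of all tested rows, were Mir-7590_5p, a rare arm with a mean slope of −0.12 log2 per h (SE 0.026) and an amplitude of 0.58 (SE 0.16, adjusted p = 0.0892 in edgeR), and the guide of unnumbered hairpin 5, with an amplitude of 0.18 (SE 0.059, adjusted p = 0.176 in edgeR). Mir-7590_5p stood at 41.2, 26.7, 28.9, 35.9, 27.6, 28.2, 16.7 and 12.2 from 18 to 25 h, and at 14.2, 25.3, 34.4, 25.6, 21.9, 10.5, 7.81 and 3.47 from 26 to 33 h. It was high again at 28 h and lowest at 33 h, while Mir-7590_3p of the same hairpin stood at 32.4 to 59.7 late and 82.6 to 109 early.

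Mir-7595-P1_5p had its lowest hour at 21 h, with 114, against 448 at 20 h and 190 at 22 h. Among its paralogues, Mir-7595-P2a_5p had 317 and Mir-7595-P2b_5p 333 at 21 h.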
